A study of Rattus norvegicus with 52 samples.

Results

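The genes described here are the hypoxia-inducible transcription factor subunit Hif1a, the oxygen-sensing enzyme Egln3, the glucose transporter Slc2a1 and 7 enzymes of glycolysis, 10 of the 22081 genes of the count table. They were chosen by name. Of the 10, 9 were analysed, and Gapdh was not analysed here. The values are raw counts per gene in 52 single-cell libraries from 3 male Sprague Dawley rats, with 5 cells of rat 1, 23 of rat 2 and 24 of rat 3. The rat of a cell was taken from the first number of its title. Titles do not call that number a rat, and every value over 3 rats rests on this reading. All rats belonged to 1 group, the aneurysm model. The animals were 7 weeks old per the labels. In the model the left common carotid artery is joined end to side to the right one, the left renal artery is tied, and the chow holds 8% sodium chloride and 0.12% of the lysyl oxidase inhibitor 3-aminopropionitrile. Cells that had taken up DiI nanoparticles in the 3 days after injection were cut singly from the lesion by laser, so the label marks uptake of particles. No other group was analysed here, so values are compared between genes, rats and cells, and the rat is the replicate (n = 3).

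HIF-1 is a pair of proteins, an alpha subunit and the partner ARNT. In normal oxygen, prolyl hydroxylases of the EGLN family mark the alpha subunit for destruction by the VHL ubiquitin ligase, so the amount of active factor is set mainly at the protein and not at the transcript. When oxygen falls, or in macrophages that meet inflammatory signals, the alpha subunit persists and raises genes for glucose uptake and glycolysis, together with EGLN3 itself, which feeds back on the pathway. Inflammatory macrophages are known for a high use of glycolysis.

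Libraries were shallow. The total per cell lay between 1538 and 84848 counts, with medians of 18261 in rat 1, 11390 in rat 2 and 21841 in rat 3. The 9 genes together took 771 counts, 0.0757% of all counts, and 9 cells (8 of them from rat 2) held none of them. Of 21 macrophage markers a cell held a median of 1 at 5 or more counts, and 24 cells held none. At 1 or more counts the markers were found in a median of 6 cells, against 4 for all genes. Markers of other cell types were as wide or wider at medians of 9 cells (smooth muscle), 8 (fibroblast, adipocyte) and 6 (endothelial). Medians were 3 cells for skeletal muscle, neutrophil and B cell markers and 2 for erythroid and T cell markers. The macrophage median was thus not the highest among cell types at 1 or more counts. At 5 or more counts the order differed, since 95.2% of the macrophage markers reached that level in some cell. Lists of the other cell types ran from 0% (T cell) to 63.6% (smooth muscle), against 27.4% of all genes. The Fc receptor gene Fcgr3a was found in 35 cells and the mannose receptor gene Mrc1 in 33, Cybb and Spi1 in 16 each, Csf1r in 12, Lyz2 in 9 and Cd68 in 6, and Cd14 in 1. A gene was taken as detected in a cell at 1 or more counts, and 5 or more counts served as a stricter level. Numbers of cells are not corrected for transcript length. Several of these enzymes have processed copies elsewhere in the genome, and how reads were shared among copies is not given in the sources used here.

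HIF-1 binds DNA at a short core that reads ACGTG or GCGTG. The promoter windows of the genes (250 bases before and 50 after each annotated start, RefSeq, build GRCr8) were searched for both words on both strands, and a CACGTG, which is also the binding word of other factors, counts once on each strand. Of the 9 genes 8 were in the table, with 11 windows, of which 6 held a match. Over all 33469 windows of the same length, 41.6% held at least 1. The Ldha window had the most matches among these genes, 6 against 4 for Slc2a1, though each of the 2 had 4 in the bases before its start. The Egln3 window had none. The upstream 250 bases of both are shown because Ldha and Egln3 lie at opposite ends of this count, with matches in capitals, at chr1:106507842-106508091 (plus strand) for Ldha and chr6:77411016-77411265 (minus strand) for Egln3.
Ldha: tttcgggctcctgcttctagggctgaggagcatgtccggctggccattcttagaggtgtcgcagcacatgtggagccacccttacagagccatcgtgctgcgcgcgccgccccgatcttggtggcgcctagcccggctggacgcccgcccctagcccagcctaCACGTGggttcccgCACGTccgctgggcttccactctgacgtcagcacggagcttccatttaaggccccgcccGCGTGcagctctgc
Egln3: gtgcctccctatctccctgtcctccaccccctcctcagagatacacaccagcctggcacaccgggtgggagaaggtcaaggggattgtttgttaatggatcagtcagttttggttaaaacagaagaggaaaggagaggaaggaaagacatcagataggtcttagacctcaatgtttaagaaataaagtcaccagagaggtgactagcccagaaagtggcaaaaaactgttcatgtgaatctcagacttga

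Shorter stretches of 29 bases show 1 match from each of the other 4 genes that had one, again in capitals. They lie at chr6:98359722-98359750 (plus strand, Hif1a), chr5:138002459-138002487 (plus, Slc2a1), chr1:190836953-190836981 (minus, Aldoa, in the last of its 3 windows) and chr5:166002842-166002870 (plus, Eno1, in the first of its 2 windows).
Hif1a: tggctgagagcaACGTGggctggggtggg
Slc2a1: gtcccgccccggACGTGgtcctcaggccc
Aldoa: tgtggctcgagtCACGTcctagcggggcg
Eno1: ctccgtcaattcCACGCgggagtgaggcc

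Windows of Hk2 and Pkm held neither word. A match describes letters only, and its absence says only that the word is not in this window.

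Hif1a, the oxygen-regulated subunit, had low counts in all 3 rats. Its counts in the 5 cells of rat 1 were 0, 0, 0, 1 and 0. The 23 cells of rat 2 ran from 0 to 3 with a median of 0, and the 24 cells of rat 3 from 0 to 4 with a median of 0. It was found in 10 of 52 cells (19.2%, exact Clopper-Pearson 95% interval 9.63 to 32.5), 7 of them with exactly 1 count, and no cell reached 5. At least as many cells were reached by 20.7% of all genes. By rat the share was 20.0%, 21.7% and 16.7%, a mean of 19.5% ± 2.58 (SD, n = 3 rats). The 3 rats were close at 1 count, but a share built on single counts is near the limit of detection: with 2 or more counts required the mean was 4.23%. Each cell was also thinned to 10181 counts in 1 random draw. Hif1a was then found in 5 of the 39 cells deep enough, against 10 of the same cells unthinned.

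Epas1, which encodes the related subunit HIF-2 alpha, was found in about as many cells at 1 or more counts, a number that 18.2% of all genes reached. Hif1a was found in 10 cells and Epas1 in 11, with 3 cells holding both, and neither reached 5 counts in any cell. The difference in detection, Hif1a minus Epas1, was -1.21 ± 14.9 percentage points (SD, n = 3 rats), at 0, 13.0 and -16.7 points in rats 1 to 3 (2-sided exact sign-flip permutation p = 1). The rats therefore disagreed in direction, and without rat 3 the difference was 6.52 points. At 2 or more counts Hif1a was in 3 cells and Epas1 in 8, and the mean difference was -12.2 points. With 3 rats this test cannot give a p below 0.25, so no difference between genes could pass 0.05.

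Egln3, the prolyl hydroxylase also known as PHD3, was the most widely found of the 9 genes. Its counts in the 5 cells of rat 1 were 4, 0, 0, 3 and 11. Rat 2 ran from 0 to 6 with a median of 0, and rat 3 from 0 to 9 with a median of 3. It was found in 31 of 52 cells (59.6%, interval 45.1 to 73.0) and at 5 or more counts in 8 (15.4%, interval 6.88 to 28.1). By rat the share with a count was 60%, 43.5% and 75.0%, a mean of 59.5% ± 15.8 (SD, n = 3 rats). Only 2.81% of all genes were found in as many cells. Unlike Hif1a, most Egln3 cells held more than a single count: 4 held exactly 1, 19 held 2 to 4 and 8 held 5 or more. Counts were also spread over cells, since the cell with the most, rat 1 cell 5, held 8.80% of the 125 Egln3 counts.

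The other EGLN hydroxylases were found in fewer cells. At least as many cells were reached by 59.8% of all genes for Egln1 and by 43.0% for Egln2. Egln1, the isoform known as the main hydroxylase of HIF-1 alpha, was found in 3 cells with at most 2 counts, and Egln2 in 5 cells with at most 26. Egln3 exceeded Egln1 by 55.3 ± 10.3 percentage points and Egln2 by 41.9 ± 23.5 points (SD, n = 3 rats), each in 3 of 3 rats. Both had an exact sign-flip permutation p of 0.25, adjusted to 0.458 over 11 pairs. At 5 or more counts the mean difference from Egln2 was 3.12 points, and the direction did not hold in rat 1. There 2 of 5 cells held Egln2 at that level and 1 held Egln3. In rats 2 and 3 no cell held Egln2 at that level, and 1 and 6 cells held Egln3.

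**Figure D1:**
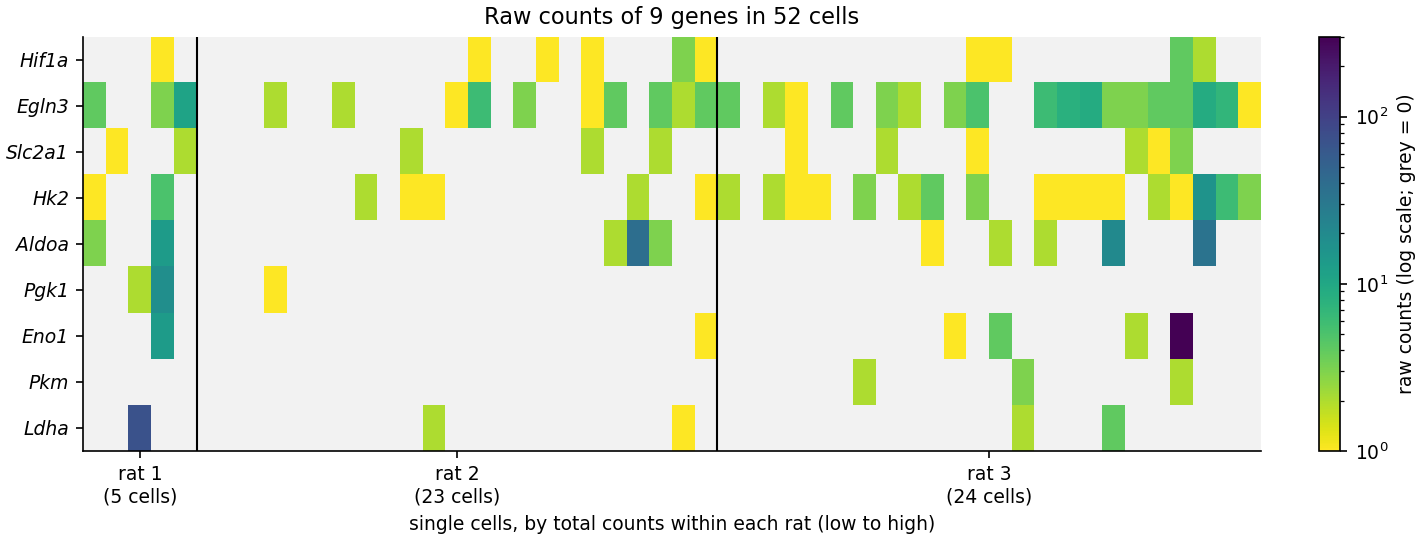
Raw counts (log colour scale, grey for 0) of the 9 genes in 52 cells, grouped by rat and ordered by total counts within each rat. Egln3 and Hk2 fill many cells with low counts, while Eno1 reached 301 counts in 1 cell of rat 3 and Ldha 71 counts in 1 cell of rat 1.

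Slc2a1, the glucose transporter GLUT1, was found in 11 of 52 cells (21.2%, interval 11.1 to 34.7), a number that 18.2% of all genes reached. It had at most 3 counts in a cell and none at 5. Its counts in the 5 cells of rat 1 were 0, 0, 1, 0 and 2. By rat the share was 40.0%, 13.0% and 25.0%, a mean of 26.0% ± 13.5 (SD, n = 3 rats). Slc2a3, the high-affinity transporter GLUT3, had no count in any of 52 cells, like 16.1% of all genes. By counting error alone, with 3 cells of 52 taken as the limit, up to 5.77% of such libraries could hold a count at these depths, which does not limit the share of cells that express the gene. The difference, Slc2a1 minus Slc2a3, was 26.0 ± 13.5 points in 3 of 3 rats (exact sign-flip permutation p = 0.25, adjusted p = 0.458), and was 0 at 5 or more counts, which neither gene reached. With no Slc2a3 count this difference is the detection of Slc2a1 itself and could not be negative in any rat.

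Hk2, hexokinase 2, the inducible enzyme that traps glucose in the cell, was the most often found of the 6 enzymes. Its counts in the 5 cells of rat 1 were 1, 0, 0, 5 and 0. Rat 2 ran from 0 to 2 with a median of 0, and rat 3 from 0 to 16 with a median of 1. Detection differed widely between rats, at 40.0%, 21.7% and 70.8%, a mean of 44.2% ± 24.8 (SD, n = 3 rats). It was found in 24 of 52 cells (46.2%, interval 32.2 to 60.5), a number that 4.90% of all genes reached. In 3 cells it had 5 or more counts. Thinned to 10181 counts, Hk2 was in 2 of 5 cells of rat 1 (40%), 1 of 13 of rat 2 (7.69%) and 9 of 21 of rat 3 (42.9%), so that rats 1 and 3 were close and rat 2 lower. Hk1, the housekeeping hexokinase of most tissues, was found in 2 cells, a number that 70.7% of all genes reached. Neither of these cells held Hk2. Hk2 exceeded Hk1 by 41.4 ± 20.4 points in 3 of 3 rats (SD, n = 3; exact sign-flip permutation p = 0.25, adjusted p = 0.458).

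**Figure D2:**
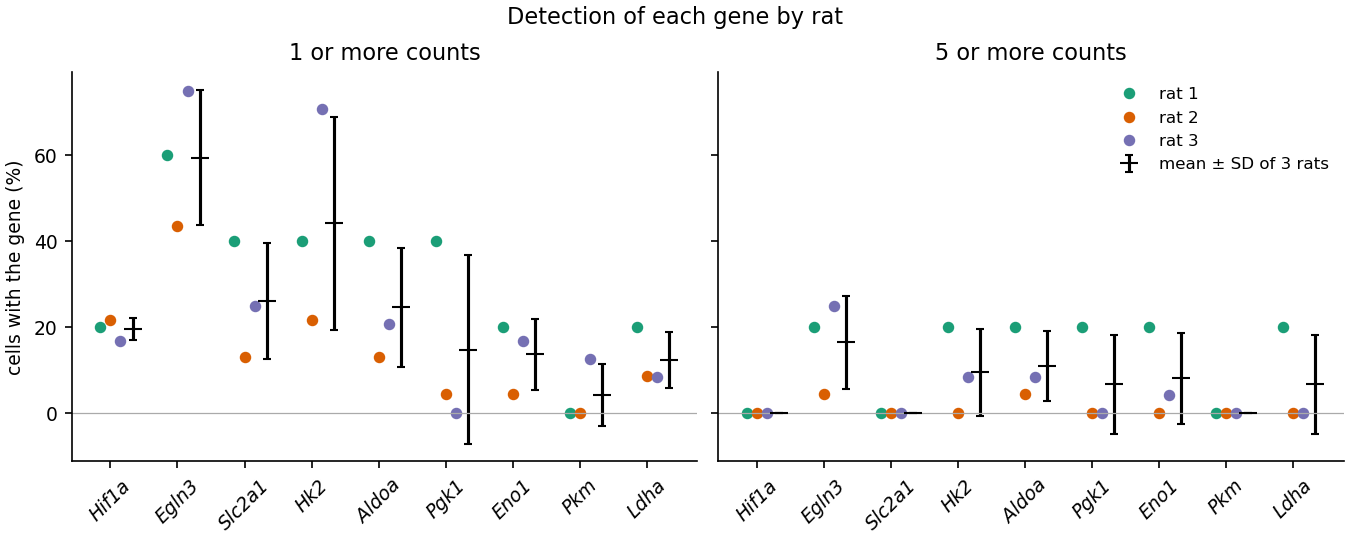
Percent of cells with each gene at 1 or more counts (left) and 5 or more counts (right), by rat, with the mean and SD of 3 rats in black. Egln3 and Hk2 stand highest at 1 count (59.5% and 44.2%), and at 5 counts no gene exceeds a mean of 16.4%.

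The later enzymes were each found in 10 cells or fewer. Aldoa's number of cells was reached by 20.7% of all genes and that of Eno1 by 36.6%. The share was 43.0% for Ldha and 59.8% for Pgk1 and Pkm. Aldoa, aldolase A, was found in 10 of 52 cells (19.2%, interval 9.63 to 32.5) and at 5 or more counts in 4. Its counts were 3, 0, 0, 13 and 0 in rat 1, 0 to 38 in rat 2 and 0 to 34 in rat 3, with medians of 0 in every rat. The brain-type isozyme Aldoc was found in 5 cells, and Aldoa exceeded it by 12.3 ± 6.63 points in 3 of 3 rats (SD, n = 3; exact sign-flip permutation p = 0.25, adjusted p = 0.458). Aldoa was thus the enzyme with the most cells at 5 or more counts.

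Pgk1, the first ATP-making enzyme of the pathway, was found in 3 of 52 cells (5.77%, interval 1.21 to 15.9), with counts of 0, 2, 0, 18 and 0 in rat 1, 1 count in 1 cell of rat 2 and none in rat 3. Its testis-expressed retrogene Pgk2 was found in as many cells, also 3, with at most 2 counts. Pgk1 minus Pgk2 was 10.6 ± 25.8 points (SD, n = 3 rats; exact sign-flip permutation p = 1). That value came from rat 1 alone, at 40.0, 0 and -8.33 points in rats 1 to 3, and was -4.17 points without rat 1.

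Eno1, the widely expressed enolase, was found in 6 of 52 cells (11.5%, interval 4.35 to 23.4). Its counts were 0, 0, 0, 13 and 0 in rat 1, 0 to 1 in rat 2 and 0 to 301 in rat 3. Rat 3 cell 43 alone held 301 of the 322 Eno1 counts (93.5%), which was 0.771% of that library. The neuronal isozyme Eno2 was found in 8 cells and the muscle isozyme Eno3 in 3. Eno1 minus Eno2 was 2.44 ± 15.3 points and Eno1 minus Eno3 4.17 ± 7.22 points (SD, n = 3 rats; exact sign-flip permutation p = 1 for each). Enolase isozymes were thus not separated by detection, and the first difference was -6.34 points without rat 1.

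Pkm, the muscle-type pyruvate kinase that macrophages use, was found in 3 of 52 cells (5.77%), all of rat 3, at 2, 2 and 3 counts. Pklr, the liver and red cell isozyme, was found in 17 cells with at most 8 counts, among them all 3 with Pkm. Pkm minus Pklr was -19.7 ± 18.8 points, at 0, -21.7 and -37.5 points in rats 1 to 3 (SD, n = 3; exact sign-flip permutation p = 0.5, adjusted p = 0.786). Of the 11 pairs this difference was the most negative, and it was not told apart from 0 with 3 rats.

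Ldha, the lactate dehydrogenase subunit that turns pyruvate to lactate, was found in 5 of 52 cells (9.62%, interval 3.20 to 21.0). Its counts were 0, 71, 0, 0 and 0 in rat 1, 0 to 2 in rat 2 and 0 to 4 in rat 3, so rat 1 cell 2 held 88.8% of its 80 counts. Ldhb, the heart-type subunit, had 0 of 52 cells, like 16.1% of all genes. Ldha exceeded Ldhb by 12.3 ± 6.63 points in 3 of 3 rats (SD, n = 3; exact sign-flip permutation p = 0.25, adjusted p = 0.458). With no Ldhb count this difference is the detection of Ldha itself and could not be negative in any rat.

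**Figure D3:**
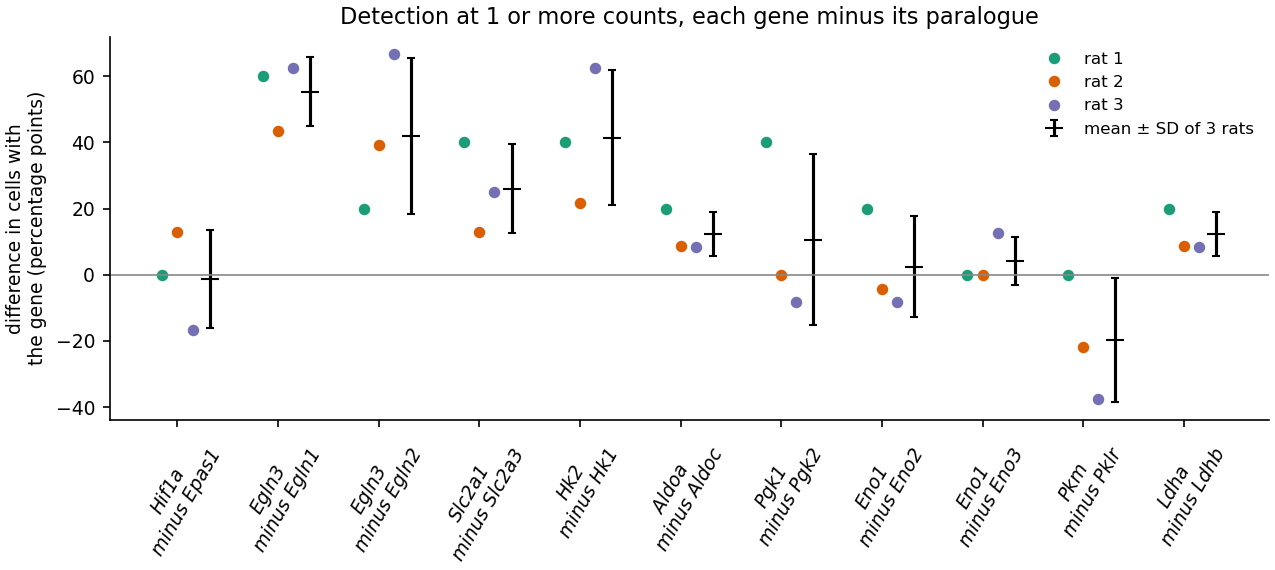
Difference in the percent of cells with 1 or more counts, each gene minus its paralogue, for 11 pairs; points are rats and black bars the mean and SD of 3 rats. Egln3 over Egln1, Egln3 over Egln2 and Hk2 over Hk1 are the widest at 55.3, 41.9 and 41.4 points, and Pkm lies 19.7 points under Pklr.

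Set against the whole table, 5 of the 9 genes were found in at least 10 cells, where 20.7% of all 22081 genes were, and 6 reached 5 counts in some cell, where 27.4% of all genes did. The 9 genes were found in a median of 10 cells, against 4 for all genes. For the 6 enzymes alone, a cell held 1.14 ± 0.555 of them at 1 or more counts (SD, n = 3 rats), or 19.0% of the 6, against 12.6% ± 3.88 of all genes. At 5 or more counts a cell held 0.417 ± 0.511 of the 6, or 6.95%, against 1.99% ± 0.785 of all genes. That value turned on rat 1 cell 4: without it a cell held 0.167 ± 0.109 of the 6, or 2.79%, against 1.72% ± 0.518 of all genes. These shares are descriptions of genes chosen by name, and no test was made of them.

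Counts of several enzymes sat in single cells. Of the 6 genes with 20 or more counts, Pgk1, Eno1 and Ldha had 50% or more of their counts in 1 cell, and 33.7% of the 5393 genes with 20 or more counts in the table did so. The top cell held 85.7% of Pgk1 counts, 93.5% of Eno1 and 88.8% of Ldha, against 25.4% of Hk2, 32.2% of Aldoa and 8.80% of Egln3. The median over those 5393 genes was 29.1%. Enzyme counts were therefore more unevenly held than those of Egln3, though a share of 3 in 6 genes is read beside a background of 33.7%.

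The 5 cells with the most enzyme counts held 516 of the 611 counts of the 6 enzymes (84.5%), and they differed in which enzyme they held. Rat 3 cell 43 had 301 Eno1, 2 Pkm and 1 Hk2 counts and none of Aldoa, Pgk1 and Ldha. Rat 1 cell 2 had 71 Ldha and 2 Pgk1 counts and none of the other 4. Rat 2 cell 7 had 38 Aldoa and 2 Hk2 counts. Each of these 3 cells was thus led by a single enzyme. Rat 3 cell 39 had 34 Aldoa and 16 Hk2 counts. Rat 1 cell 4 was the only cell of the 52 with 4 of the enzymes, at 18 Pgk1, 13 Aldoa, 13 Eno1 and 5 Hk2 counts, and also held 52 counts of the phosphoglycerate mutase Pgam1, 43 of Pdk1, the kinase that shuts off pyruvate dehydrogenase, and 32 of the mitochondrial pyruvate carrier gene Mpc1. In all, 7 cells held any of the 6 enzymes at 5 or more counts and 2 of them, the last pair named, held more than 1.

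Macrophage transcripts moved with some of these cells. At 5 or more counts, rat 1 cell 4 held 11 of the 21 macrophage markers, rat 3 cell 39 held 9 and rat 2 cell 7 held 6, the 3 highest of all 52 cells. Rat 3 cell 43 and rat 1 cell 2 held 1 each. Summed over the 21 markers the counts were 535, 1567, 548, 16 and 11 in the same order. The defining marker Cd68 was at 33, 0, 95, 0 and 0 counts and Csf1r at 0, 192, 0, 0 and 0. Rat 3 cell 43 held 293 counts of Col1a1, a collagen gene of fibroblasts, and at 5 or more counts 2 of 9 fibroblast, 3 of 11 skeletal muscle, 2 of 11 smooth muscle and 2 of 9 endothelial markers. Ribosomal protein genes took 1.66%, 4.42%, 3.96%, 6.26% and 1.61% of counts in the same 5 cells, against a median of 1.07% over all cells. The other 5 cells with 3 or more markers held few enzyme counts: rat 2 cell 13, with 5 markers, had 1, rat 2 cells 14 and 27 had 0, and rat 3 cells 33 and 36 had 2 and 3. The part of cell type and RNA quality in the enzyme counts was not tested.

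**Figure D4:**
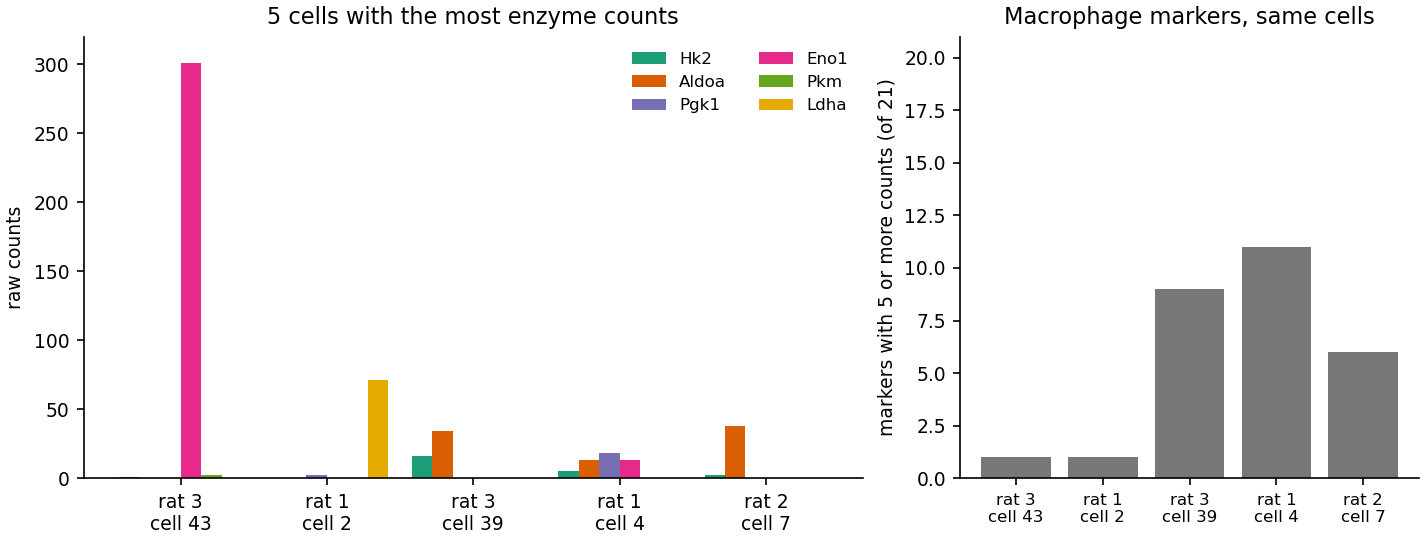
Left, raw counts of the 6 enzymes in the 5 cells with the most; right, how many of 21 macrophage markers had at least 5 counts in the same cells. A single enzyme leads rat 3 cell 43, rat 1 cell 2 and rat 2 cell 7, while rat 1 cell 4 has 4 enzymes and 11 markers.

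Co-occurrence was described as shares of each gene's cells, with no p, since cells of 1 rat share their source and detection moves with depth. Hif1a and Egln3 shared 8 cells, 80.0% of the Hif1a cells and 25.8% of the Egln3 cells, where Egln3 was found in 59.6% of all cells. The 10 Hif1a cells were mostly deep: 8 of them were among the 26 cells with totals above the median (15201 counts or more), where 20 of 26 cells held Egln3 and 7 cells held both. Thinned to 10181 counts, 2 of the 5 Hif1a cells held both (40%, where Egln3 was in 51.3% of all 39 thinned cells). The share of Hif1a cells with Egln3 was thus above that over all cells at full depth. It was below it after thinning, but that value rests on 5 cells and 1 random draw, so its side is not settled. The 39 thinned cells are also the deeper ones, and 27 of them held Egln3 before thinning. Without rat 2 the shared cells were 4 and without rat 3 they were 5, and no cell held Hif1a at 5 counts.

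Egln3 and Hk2 shared 17 cells, 54.8% of Egln3 cells and 70.8% of Hk2 cells, of which 14 were from rat 3. Thinned, they shared 4 cells, 33.3% of the 12 Hk2 cells, where Egln3 was in 51.3% of the 39 cells. This share too was above that over all cells at full depth and below it after thinning. The thinned value again rests on few cells and 1 random draw. Without rat 3 the shared cells were 3. Of the 33 cells with any of the 6 enzymes, 23 held Egln3 (69.7%, against 59.6% of all cells) and 7 held Hif1a (21.2%, against 19.2% of all cells). In the 26 deeper cells Egln3 was in 18 of the 23 with an enzyme, beside 20 of all 26. In the 26 shallower cells it was in 5 of the 10 with an enzyme, beside 11 of all 26. Without Hk2, the share of enzyme cells with Egln3 was 13 of 20 (65.0%). Depth thus moved with the number of shared cells, and its part in them was not tested. Hif1a and Eno1 shared 4 cells, 40.0% of Hif1a cells and 66.7% of Eno1 cells. Over all cells Eno1 was in 11.5% and Hif1a in 19.2%. All 4 shared cells were among the 26 deeper cells, of which 8 held Hif1a and 6 held Eno1. After thinning 1 cell held both.

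Among the enzymes, Hk2 and Aldoa shared the most cells, 7 (29.2% of Hk2 cells and 70.0% of Aldoa cells). Over all cells Aldoa was in 19.2% and Hk2 in 46.2%. They shared 4 after thinning, 3 at 2 or more counts and 3 without rat 3. Of the 15 enzyme pairs 3 shared no cell. Of 52 cells 19 held none of the 6 enzymes, 19 held 1, 11 held 2, 2 held 3 and 1 held 4. Counting every isozyme listed for 10 steps from hexokinase to lactate dehydrogenase, with the glyceraldehyde-3-phosphate dehydrogenase step left out, a cell held a count for a median of 3 steps and at most 6. At 5 or more counts 35 cells had no step, and rat 1 cell 4 had the most, with 5. No library held transcripts of the whole pathway at this depth. The hexokinase step was the most often found, in 32 cells, and the triosephosphate isomerase step the least, in 4.

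**Figure D5:**
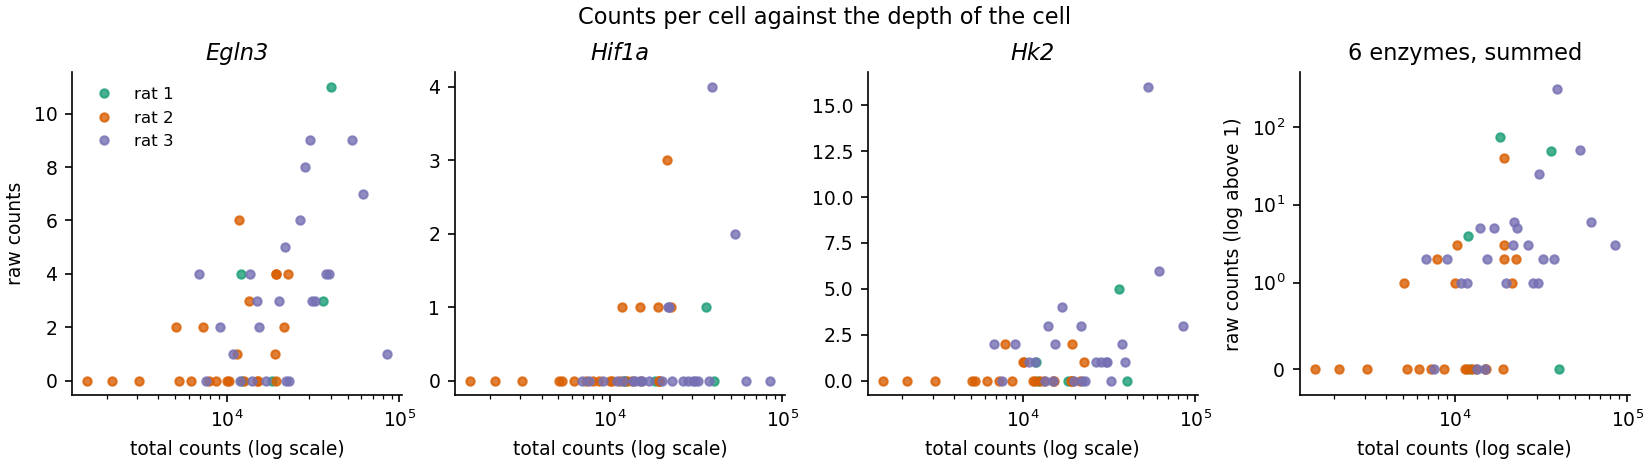
Raw counts per cell of Egln3, Hif1a, Hk2 and the 6 enzymes summed, against the total counts of the cell (log axis, with a log vertical axis above 1 in the last panel); colours are rats. Egln3 counts climb with depth (Spearman's rho 0.56 over 52 cells), and the few cells far above the others in the right-hand panel hold most of the enzyme counts.

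Depth moved with detection for most of the 9 genes, and the pooled levels are given beside it. Egln3 was found in 20 of the 26 deeper and 11 of the 26 shallower cells, and Hk2 in 15 and 9. Pooled over cells, Egln3 took 120 CPM (counts scaled to a fixed library total) in the deeper and 131 CPM in the shallower cells, and Hk2 63.3 and 57.4 CPM, so that neither gene's pooled level differed between deeper and shallower cells by as much as its detection did. Aldoa took 149 CPM in the deeper and 12.3 CPM in the shallower cells, and still 102 CPM in the deeper ones without its top cell, rat 2 cell 7. Ldha took 101 and 8.19 CPM, and 9.26 CPM in the deeper cells without rat 1 cell 2. Pkm took 6.46 CPM in the deeper and 8.19 CPM in the shallower cells. Eno1 had no count in any of the 26 shallower cells and 416 CPM in the deeper ones, 28.6 CPM without rat 3 cell 43. Differences between genes in this were not tested. Rank correlations of raw counts with total counts over 52 cells were 0.56 for Egln3, 0.36 for Hk2 and 0.35 for Hif1a, and Egln3 counts followed the number of genes found more closely, at 0.73. Of the 21 cells with 3000 or more genes 20 held Egln3, and of the 14 with fewer than 1500 genes 3 did.

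The rest of the HIF pathway was described from lists of other genes. Of 14 other subunits and oxygen sensors, 8 (57.1%) reached 5 counts in some cell, against 27.4% of all genes, and the median number of cells was 5, against 4 over all genes. Arnt2, a partner subunit known mainly from neurons and kidney, was found in 36 cells and reached 43 counts, while Arnt, the general partner, was found in 4. Vhl, the ligase subunit, was found in 17 cells and Hif3a in 8. Of 24 other HIF target genes, 15 (62.5%) reached 5 counts in some cell, against 27.4% of all genes, with a median of 6 cells against 4. Bnip3l, a mitophagy receptor, was found in all 52 cells, the growth factor gene Vegfa in 36 and Ero1a, an oxidase of protein folding, in 34 with at most 4 counts. Bnip3, the close relative of Bnip3l, was found in 6 cells and P4ha1, a collagen prolyl hydroxylase, in 0 of 52. The target genes thus did not share 1 pattern of detection.

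Of 18 other glycolytic genes 11 (61.1%) reached 5 counts in some cell, against 27.4% of all genes, and the median of 4.5 cells was near the 4 of all genes. The most often found was Gapdhs, the sperm form of glyceraldehyde-3-phosphate dehydrogenase, in 29 cells, reaching 34 counts, followed by Pgam1 in 20, Pklr in 17 and the liver phosphofructokinase Pfkl in 11. Isozymes known from sperm and liver were therefore among those found in the most cells. Of 22 genes for lactate, pyruvate and hexose transport and their switches, 5 (22.7%) reached 5 counts in some cell, against 27.4% of all genes, and 4 (18.2%) had no count in any cell, against 16.1% of all genes. The median was 3.5 cells, against 4 over all genes, so this list lay near the whole table. The lactate transporter gene Slc16a1 was found in 14 cells, and Pdk1, the phosphofructokinase activator gene Pfkfb3 and Slc16a7 in 6 each.

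Likeness of pattern was measured by Spearman's rho of log2(CPM + 1) over 52 cells, across 4566 genes found in at least 10 cells, as a description. The points share their library and depth. For Hif1a the closest genes were Dcdc2 (0.58), Sptbn1 (0.53), Ddc (0.52), Pcnx1 (0.52) and Tex15 (0.52), and all but Tex15 (0.43) were at 0.12 to 0.26 once cells were thinned to 1 depth. For the summed enzymes they were Eif4a1 (0.53), a helicase of translation initiation, Snx19 (0.51), Olah (0.48), Usp26 (0.48) and Dvl3 (0.48), and these 5 lay between 0.14 and 0.46 after thinning. Egln3, added after its values were seen, had closer neighbours: the histone methyltransferase gene Setd2 (0.70), the deubiquitinase gene Usp13 (0.65), the CCAAT-binding factor subunit Nfyb (0.64), Bola3 (0.63) of mitochondrial iron-sulfur assembly and L3hypdh (0.62). After thinning these 5 lay between 0.36 and 0.58. None of the genes nearest to Hif1a, to the enzyme sum or to Egln3 came from the HIF or glycolysis lists. Few genes of these lists could have appeared, because few were found in at least 10 cells. Those that were comprised 3 of 14 other HIF subunits and sensors, 7 of 24 other targets and 5 of 18 other glycolytic genes. Of the 22 transport and switch genes 1 was. With so few list genes among 4566, their absence cannot tell whether the pathway shares a pattern, and no conclusion is drawn from it.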

How the data were processed

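Single labelled cells were profiled with the SMART-Seq Single Cell Plus kit, per the labels' protocols. The authors deposited raw counts, whole numbers for each gene symbol in each cell, as the values show. Aligner, counting tool, genome build and strand setting: not given in the sources used here. Reads of overlapping and antisense genes are therefore uncertain. Columns were assigned by title, and 0 were left over. The genes, lists and pairs were chosen with earlier results of these data known. No test between groups, such as edgeR's, was possible with 1 group.

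Detection meant 1 or more counts. Shares were averaged within each rat, then over 3 rats. Of 12 planned gene pairs, 11 were tested with a 2-sided exact sign-flip permutation test over rats, with Benjamini-Hochberg adjustment over the 11. Exact Clopper-Pearson 95% intervals, and limits for 0 counts (3 of 52 cells), cover counting error only and treat cells as independent. Each cell was cut out on its own and doublets were not called. Whether a library holds material of neighbouring cells was not tested. No molecular identifiers are recorded. Levels were log2(CPM + 1) with column totals. Levels per transcript length, planned, were not computed because no lengths were used, and levels were not compared between genes. Named genes were the 9 genes, the paralogues, the 4 most often found members of each list and the 5 genes nearest in pattern. A gene that this rule names is not reported here. Also named are the 5 cells with the most enzyme counts, with the list members and cell type markers that describe them. Arnt, Bnip3, P4ha1, the macrophage markers named one by one and the steps of glycolysis were added after values were seen. Alternatives were 2 or 5 counts, cells with at least 1000 genes, thinning to 10181 counts (39 cells kept), equal weights for cells, each rat left out, pseudocounts of 0.1 and 10, TMM scaling and totals over other sets of genes. All thinned values come from 1 random draw. Procedures were tested on simulated data. Software comprised edgeR 4.0.16 under R 4.3.3 for TMM, then scipy 1.17.1, numpy 2.4.6 and pandas 2.3.3 under Python 3.11.15, with plots from matplotlib 3.10.9.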

Additional observations from a re-analysis of the deposited data

How the results depend on the processing

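Of 88 alternative values for the 11 gene pairs, 80 kept the direction of the reported mean, which single rats need not share. Values of Slc2a1 minus Slc2a3 and of Ldha minus Ldhb could not reverse, because neither Slc2a3 nor Ldhb had a count. Hif1a minus Epas1 was -12.2 points at 2 or more counts and 0 points at 5 or more, and ran from -8.33 to 6.52 with each rat left out. Slc2a1 minus Slc2a3 was 0 at 5 or more counts. Pgk1 minus Pgk2 was 0 with cells weighted equally and ran from -4.17 to 20.0 with each rat left out. Eno1 minus Eno2 was -3.85 with cells weighted equally and ran from -6.34 to 7.83 with each rat left out, and Eno1 minus Eno3 ran from 0 to 6.25. The number of enzymes per cell was 0.417 at 5 or more counts, and 0.907 to 1.45 with each rat left out. Without rat 1 cell 4, an alternative chosen after seeing the data, it was 0.938, and 0.167 at 5 or more counts. Of 72 alternative values for single genes' detection 65 moved by less than 1 SD, and the 18 levels that moved by more, of 90, were those with another pseudocount. For Pgk1 (14.8% ± 21.9) and Pkm (4.17% ± 7.22) the SD over rats exceeded the mean, so no fall in detection could pass it. Pgk1 at 2.17% without rat 1 and Pkm at 0% at 5 or more counts are among the 65, which therefore do not show stability. Numbers of shared cells moved most, in 17 of 28 alternative values: Egln3 and Hk2 shared 4 cells after thinning and 3 without rat 3, Hk2 and Aldoa 4 and 3, Hif1a and Egln3 2 and 5, and Hif1a and Hk2 2 and 2, against 17, 7, 8 and 5 as reported. The cause of these changes was not tested, except that fewer cells pass a higher count. No paired comparison of groups was possible because the labels give 1 group, while the gene pairs were compared within each rat. Depth limits all values: 7 of the 10 Hif1a cells held 1 count.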
